A study of Mus musculus with 6 samples.

Results

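The 10 genes described here encode C-type lectin receptors of myeloid and dendritic cells and related lectin-like molecules: Clec9a, Clec12a, Clec1b, Clec7a, Clec2d, Clec2i, Clec4a2, Clec4d, Clec4e and Clec4n. They were chosen by name, with earlier results of these data known, as were the lists of other genes used below. Counts of members and of listed genes are therefore not independent of these data. The rule took probe sets whose only annotated symbol is one of these genes, and the brightest probe set by 6-array mean for a gene with several. Each of the 10 had 1 such probe set, so brightness decided nothing, and together they are 10 of 19937 genes measured. Clec9a leads the set because its difference between genotypes was already known, so its values are given as a description, with no test.

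The samples are plasmacytoid dendritic cells (pDCs) profiled on Affymetrix arrays. They are the dendritic cell type best known for secreting type I interferon, and came from mouse spleen. The KO group was IRF8-deficient mice (3 arrays) and the WT group wild-type mice (3 arrays), and in both the cells are labelled B220 and SiglecH positive. Strain, age, the altered part of the gene and whether the deficiency was limited to some cells are not given in the labels. They also do not say that the 3 samples of a group came from separate animals, so p-values reflect sample-to-sample spread that may be technical.

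Values are log2 expression levels. Array medians lay between 5.53 and 5.56, and the number of arrays limits the precision. Irf8, the targeted gene, measured 10.47 ± 0.32 in the samples labelled KO and 10.14 ± 0.15 in WT (SD, n = 3 each, limma adjusted p = 0.425). The probe set's place relative to the alteration is not known, so it does not check the genotypes, and every direction given depends on the labelling. The gate genes were bright in both groups: Siglech measured 12.27 in KO and 12.62 in WT, and Ptprc, the gene of the CD45 protein whose B220 form was stained, 11.60 in KO and 11.47 in WT. KO replicate 1 stood apart in neutrophil genes, with a median shift of 2.90 log2 units from the WT mean over 11 markers, against 0.34 and 0.06 in KO replicates 2 and 3 and between -0.23 and 0.21 in the WT arrays. Different probe sets bind with different strength, so the level of one gene is not set against that of another.

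C-type lectin receptors are surface proteins that read sugars, lipids or proteins of microbes and of damaged cells. Some signal through a tyrosine motif in their own tail or through the adaptor FcRγ to the kinase SYK and the adaptor CARD9, and others carry an inhibitory motif that recruits phosphatases. In mouse spleen CLEC9A is known as a marker of type 1 conventional dendritic cells (cDC1) that pDCs also carry at a lower amount. IRF8 is a transcription factor that binds DNA mostly together with partners, at interferon-stimulated response elements, at composite elements with ETS factors such as PU.1, or with AP-1 factors.

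The promoters of Clec9a, Clec2i and Clec2d are shown because IRF8 was the altered factor. Clec9a had the largest difference of the 10 members. Clec2i and Clec2d lie in the same lectin cluster and are 2 of the 3 members whose KO values all lay above WT. The third, Clec12a, is in that cluster too and is not printed, although it passed limma's test (adjusted p = 0.0291) and Clec2d did not (adjusted p = 0.197). Sequences are from RefSeq (GRCm38.p6) and run from 250 bases before to 50 after the gene's start. Capitals mark matches, on either strand, to 4 motifs. These were GAAA and GAAA with 2 bases of any kind between them (interferon-stimulated response element), GGAA and GAAA spaced likewise (ETS-IRF composite element), GAGGAAGT (PU.1 site) and TGANTCA with N as any base (AP-1 site).
Clec9a, chr6:129408612-129408911, plus strand: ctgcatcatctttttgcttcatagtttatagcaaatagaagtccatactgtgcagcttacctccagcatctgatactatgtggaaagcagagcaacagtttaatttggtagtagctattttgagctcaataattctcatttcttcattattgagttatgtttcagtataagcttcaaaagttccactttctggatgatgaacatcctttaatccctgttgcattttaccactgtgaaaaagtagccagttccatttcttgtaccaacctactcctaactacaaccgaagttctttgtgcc
Clec2i, chr6:128887337-128887636, plus strand: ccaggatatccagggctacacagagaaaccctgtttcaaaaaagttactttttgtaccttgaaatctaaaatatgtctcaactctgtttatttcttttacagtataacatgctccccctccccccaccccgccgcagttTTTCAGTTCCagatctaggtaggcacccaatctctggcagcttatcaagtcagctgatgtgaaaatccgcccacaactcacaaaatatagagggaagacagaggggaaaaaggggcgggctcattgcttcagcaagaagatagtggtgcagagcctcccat
Clec2d, chr6:129180365-129180664, plus strand: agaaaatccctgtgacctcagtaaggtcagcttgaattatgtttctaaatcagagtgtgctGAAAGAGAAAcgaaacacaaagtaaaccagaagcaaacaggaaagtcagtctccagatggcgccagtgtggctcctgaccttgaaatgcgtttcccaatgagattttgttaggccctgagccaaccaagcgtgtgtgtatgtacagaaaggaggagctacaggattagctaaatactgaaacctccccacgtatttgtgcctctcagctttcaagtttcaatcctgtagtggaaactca

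The Clec9a window held 0 matches to the 4 motifs. The Clec2i window held an ETS-IRF composite match on the antisense strand that begins 111 bases before the start, and the Clec2d window an interferon-stimulated response element match on the sense strand 189 bases before it. The windows of 9 members were in the table, all but Clec4n, and 6 held a match. Besides those printed, Clec7a held an ETS-IRF composite match, Clec4d an interferon-stimulated response element match, and Clec12a and Clec4a2 an AP-1 match each, while Clec1b and Clec4e held none. No match overlapped a match to another motif in these windows. By motif, 2 of the 9 windows held the interferon-stimulated response element, 2 the ETS-IRF composite element, 0 the PU.1 site and 2 the AP-1 site. Among 32851 promoter windows of that length, the shares were 3.44%, 2.72%, 3.20% and 7.81% in the same order. The share of those windows with any of the 4 motifs was not worked out, so the count of 6 has no share beside it. A match of letters is not a binding site, and its absence here says only that these letters are not in this window.

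Clec9a encodes DNGR-1, the receptor for actin filaments exposed by dead cells. Its log2 level was 3.53, 4.08 and 3.90 in KO replicates 1 to 3, against 10.14, 10.01 and 10.33 in WT replicates 1 to 3. The groups lay far apart, each of them with little spread between its arrays. The mean was 3.84 ± 0.28 in KO and 10.16 ± 0.16 in WT (SD, n = 3 each), a difference of -6.32 log2 units (SE 0.17). The KO mean was below 4.58, the 25th percentile of all genes' 6-array means, where signal and background are hard to separate, so the difference may understate the change and no fold is given. In these bulk samples, fewer cells with the transcript and less transcript per cell cannot be told apart.

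Other genes of cDC1 moved in both directions. Of 8 listed cDC1 markers that are not members, 2 rose and 1 fell in KO (limma, adjusted p threshold 0.05), beside 2.3% and 2.08% of all genes. The other 5 passed the test in neither direction. The 8 markers had a median difference of 0.06, beside -0.04 over all genes. Their summed level, the log2 of the sum of linear signals, ran from 11.42 to 11.73 in KO and from 10.59 to 10.76 in WT. Without Cd8a, the brightest of the 8, it ran from 9.63 to 9.81 in KO and from 9.46 to 9.82 in WT. The adhesion gene Cadm1 fell by 1.71 log2 units (adjusted p = 0.00143), while Cd8a, a coreceptor chain also carried by some pDCs, rose 2.85-fold (adjusted p = 0.00128) and Tlr3, a receptor of double-stranded RNA, rose 1.83-fold (adjusted p = 0.0236). The Tlr3 call was lost without KO replicate 2 or any WT replicate (adjusted p up to 0.101). Xcr1, the chemokine receptor that defines cDC1, was low in both groups, at 4.62 ± 0.27 in KO and 4.49 ± 0.13 in WT (SD, n = 3 each).

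**Figure D1:**
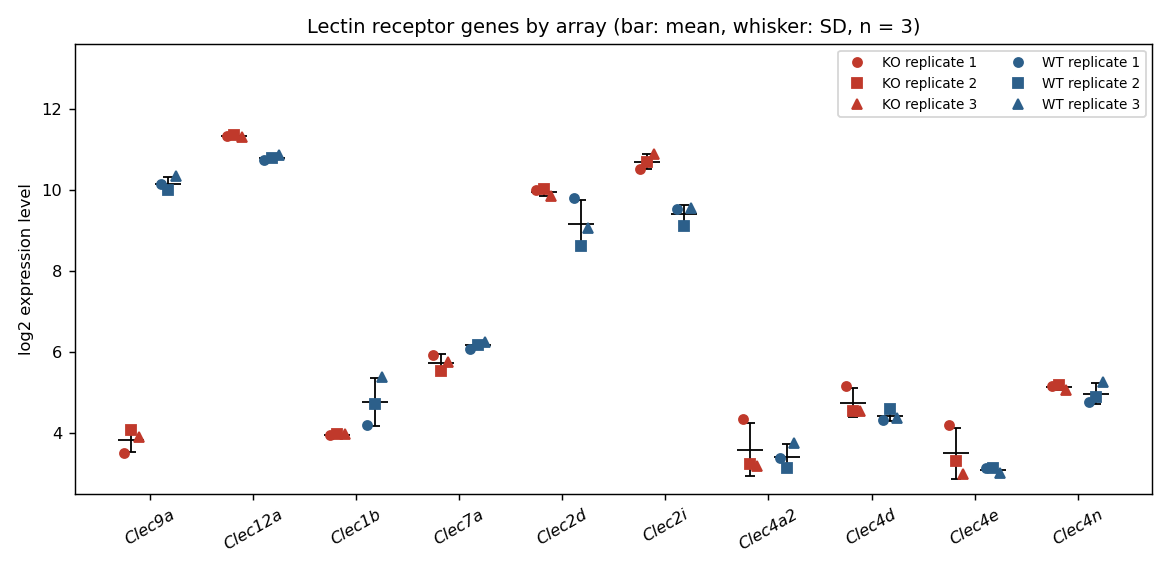
Log2 expression level (y axis) of the 10 lectin genes (x axis) in each array, KO left of WT, with symbols for replicates, the bar at the group mean and whiskers of 1 SD (n = 3). Clec9a lies at 3.53 to 4.08 in KO and 10.01 to 10.33 in WT, Clec12a, Clec2d and Clec2i lie higher in all 3 KO arrays, and Clec1b and Clec7a lower.

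Among the 9 other members, 2 rose and 0 fell in KO by limma's test adjusted over all genes, and 3 were higher and 2 lower at an unadjusted p of 0.05, where 7.58% of all genes were higher and 8.49% lower. Over all 19937 genes the share called was 4.38%, with 2.3% higher and 2.08% lower in KO. The 9 had a median difference of 0.32, beside -0.04 over all genes, and ran from -0.80 to 1.30. All 3 KO values lay above the WT range for 3 of the 9 and below it for 2, against 8.71% and 11.7% of all genes, together 20.4%.

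Clec2i rose most among them. It encodes Clr-g, a lectin-like surface ligand of NKR-P1 receptors on natural killer cells. Its level was 10.52, 10.69 and 10.89 in KO replicates 1 to 3 and 9.53, 9.12 and 9.55 in WT replicates 1 to 3. The groups did not overlap, and each KO value exceeded the highest WT value by more than the spread within WT. The difference was 1.30 log2 units, a 2.46-fold rise (SE 0.16, limma adjusted p = 0.0048), and it passed under every alternative tried, with adjusted p from 0.00174 to 0.028. Clec2i belongs to a family of similar genes whose transcripts can share a probe set's signal, and its neighbour Clec2g rose too.

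Clec12a, which encodes the inhibitory receptor MICL for uric acid crystals of dying cells, rose by a small amount. Its level was 11.33, 11.35 and 11.30 in KO replicates 1 to 3 and 10.73, 10.79 and 10.88 in WT replicates 1 to 3. The 3 KO arrays were nearly level, and all lay above WT. The difference was 0.52 log2 units, a 1.44-fold rise (SE 0.10, limma adjusted p = 0.0291). The call was lost when KO replicate 2 or 3 or any of the WT replicates was left out, with adjusted p up to 0.127, while the difference stayed between 0.43 and 0.56 under all alternatives.

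Clec2d encodes Clr-b, the ligand by which healthy cells engage the inhibitory receptor NKR-P1B on natural killer cells. Its level was 10.001, 10.02 and 9.85 in KO replicates 1 to 3 and 9.81, 8.63 and 9.06 in WT replicates 1 to 3. WT replicate 1 came close to the lowest KO array, and the other 2 WT arrays were well below it. The difference of 0.79 did not pass (SE 0.27, limma adjusted p = 0.197, 95% interval 0.15 to 1.42). Without WT replicate 1 it was 1.11 and passed (adjusted p = 0.0212), and without WT replicate 2 it was 0.52 (adjusted p = 0.409). In the WT group, replicate 1 also had the highest summed level of the neutrophil markers, 10.56 against 8.42 and 8.17 in WT replicates 2 and 3. In KO replicates 1 to 3 that sum was 14.10, 10.72 and 9.25, while Clec2d stayed between 9.85 and 10.02. The part of those cells in the Clec2d level was not tested.

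The receptors of these ligands were listed too. Of 8 listed binding partners of the C-type lectins, 0 rose and 0 fell by limma over all genes, and 2 were higher and 0 lower at an unadjusted p of 0.05 (7.58% and 8.49% of all genes). Klrb1f, an NKR-P1 receptor, measured 7.15 ± 0.52 in KO and 6.04 ± 0.54 in WT (SD, n = 3 each, limma adjusted p = 0.131). Klrb1b, the NKR-P1B gene, measured 5.22 ± 0.11 in KO and 4.83 ± 0.07 in WT (adjusted p = 0.114). Pdpn, the ligand of CLEC-2, differed by 0.07 (adjusted p = 0.912). S100a8 and S100a9, which are also neutrophil markers, had the largest differences of the list, 3.50 and 3.19, with KO replicate 1 at 12.70 and 12.65 (adjusted p = 0.351 and 0.349).

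Clec1b and Clec7a gave lower values in KO without passing the test. Clec1b encodes CLEC-2, the podoplanin receptor best known from platelets. Its level was 3.96, 3.98 and 3.98 in KO replicates 1 to 3 and 4.21, 4.73 and 5.38 in WT replicates 1 to 3. The KO arrays sat together below the 25th percentile, while the WT arrays spread over more than 1 log2 unit. The difference was -0.80 (SE 0.26, limma adjusted p = 0.172, 95% interval -1.42 to -0.19), and it was -1.09 and passed without WT replicate 1 (adjusted p = 0.0414). Without WT replicate 3 it was -0.50 (adjusted p = 0.253).

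Platelet and megakaryocyte markers were set beside Clec1b. Of 6 measured, 2 had a positive and 4 a negative difference. By limma 1 of the 6 rose, the integrin gene Itgb3, and 0 fell (2.3% and 2.08% of all genes), with a median difference of -0.06. Their summed level ran from 9.32 to 9.60 in KO and from 8.85 to 8.94 in WT, and without Itgb3, the brightest, from 7.71 to 7.79 in KO and at 7.81, 8.0001 and 7.80 in WT replicates 1 to 3. The platelet chemokine gene Ppbp measured 4.42, 4.69 and 4.63 in KO replicates 1 to 3 and 4.49, 5.74 and 5.14 in WT replicates 1 to 3 (difference -0.55, adjusted p = 0.424). WT replicate 1 was the lowest WT array for Ppbp, Pf4 and Gp9, as for Clec1b, and the highest for Itga2b, Itgb3 and Treml1. Ppbp was highest in WT replicate 2 and Clec1b in WT replicate 3. Pf4, another platelet chemokine gene, measured 3.90 in KO and 3.97 in WT, below the 25th percentile in both. The part of platelets in the Clec1b level was not tested. Clec4a3 and Mrc1, a DCIR gene and the macrophage mannose receptor, were named after their values were seen. Clec4a3 was also highest in WT replicate 3, at 5.75, and Mrc1 at 5.93, against means of 4.56 and 4.01 in KO, and neither passed (adjusted p = 0.241 and 0.195). Of the measured monocyte and macrophage markers, named likewise, Csf1r was also highest in WT replicate 3 among the WT arrays. Adgre1 and Fcgr1 were highest there in WT replicate 2, and the others in WT replicate 1. Among other lectin genes, Clec1a was highest in WT replicate 3 and Cd302 and Clec4a1 in WT replicate 2.

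Clec7a encodes Dectin-1, the beta-glucan receptor. Its level was 5.94, 5.53 and 5.77 in KO replicates 1 to 3 and 6.09, 6.19 and 6.26 in WT replicates 1 to 3. All 3 KO values were below WT, with KO replicate 1 close to WT replicate 1. The difference was -0.44 (SE 0.13, limma adjusted p = 0.14, 95% interval -0.75 to -0.13). The accessions listed for this probe set are not among the current RefSeq transcripts of Clec7a, while those of the other 9 members are.

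The 4 members of the Dectin-2 cluster, Clec4a2, Clec4n, Clec4d and Clec4e, were dim and passed the test in neither direction (2.3% higher and 2.08% lower over all genes). At an unadjusted p of 0.05 also 0 were higher and 0 lower, beside 7.58% and 8.49% of all genes. For 4 genes, counts of 0 lie near those shares. Clec4e encodes Mincle and Clec4d MCL, receptors of mycobacterial glycolipid, Clec4n encodes Dectin-2, a receptor of fungal mannan, and these act with FcRγ. Clec4a2 encodes DCIR, a receptor with an inhibitory tail. Clec4e measured 4.22, 3.31 and 3.01 in KO replicates 1 to 3 and 3.14, 3.15 and 3.03 in WT replicates 1 to 3. Only KO replicate 1 stood away from the other 5 arrays, and the means of both groups were below the 25th percentile.

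Clec4a2 and Clec4d were high in the same array. Clec4a2 measured 4.35, 3.25 and 3.20 in KO replicates 1 to 3 and 3.39, 3.14 and 3.76 in WT replicates 1 to 3. Clec4d measured 5.18, 4.56 and 4.55 in KO replicates 1 to 3 and 4.34, 4.60 and 4.37 in WT replicates 1 to 3. For Clec4n the arrays were closer, at 5.18, 5.19 and 5.07 in KO replicates 1 to 3 and 4.77, 4.90 and 5.26 in WT replicates 1 to 3, with WT replicate 3 the highest. The differences were 0.40 for Clec4e, 0.17 for Clec4a2, 0.32 for Clec4d and 0.17 for Clec4n (limma adjusted p = 0.577, 0.87, 0.488 and 0.671). Without KO replicate 1 they were 0.05 for Clec4e, -0.20 for Clec4a2, 0.11 for Clec4d and 0.15 for Clec4n. Other single arrays also moved these small differences. Clec4n was 0.06 without WT replicate 1 and 0.31 without WT replicate 3, and Clec4e was 0.66 without KO replicate 3. Clec4a2 was 0.35 without KO replicate 2, 0.37 without KO replicate 3, 0.03 without WT replicate 2 and 0.34 without WT replicate 3.

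Neutrophil genes were high in the same array. Of the 11 neutrophil markers, 0 rose and 0 fell by limma (2.3% and 2.08% of all genes). The same held at an unadjusted p of 0.05 (7.58% and 8.49% of all genes). Their summed level ran from 9.25 to 14.10 in KO and from 8.17 to 10.56 in WT, each time highest in replicate 1. Of 9 measured monocyte and macrophage markers, 0 rose and 1 fell (2.3% and 2.08% of all genes), with a median difference of 0.00. The summed level of the 9 ran from 11.10 to 11.52 in KO and from 11.83 to 11.99 in WT. Without Cd68, the brightest and the one that fell, that sum ran from 10.48 to 10.93 in KO and from 10.12 to 10.49 in WT. The part of these cells in the Dectin-2 cluster values was not tested.

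**Figure D2:**
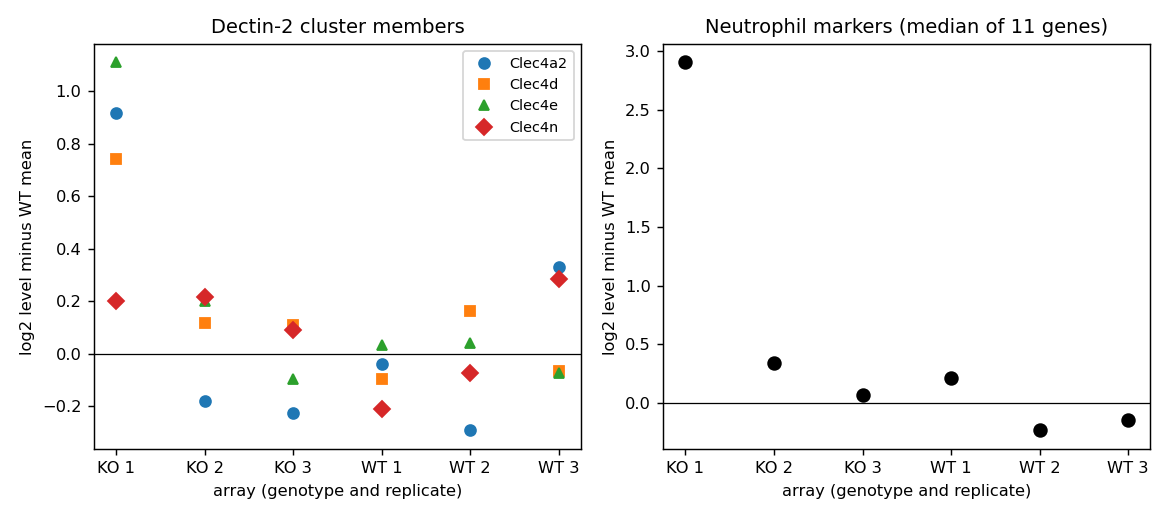
Log2 level minus the WT mean (y axis) in each array (x axis) for the 4 Dectin-2 cluster members on the left and for the median of 11 neutrophil markers on the right. KO replicate 1 is highest for Clec4a2, Clec4d and Clec4e, and for the neutrophil markers at 2.90.

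In chromosomal order, most genes shown of the group that holds Clec9a lay in stretches with the same direction. All members lie on chromosome 6, in 2 groups, and only their order in the RefSeq table was used. In the stretch from Clec2i to Clec12b, 7 of 9 measured protein-coding genes had all 3 KO values above WT, namely Clec2i, Clec2g, Klrb1f, Clec2d, Cd69, Clec2m and Clec12a. For Clec2e and Clec12b the groups overlapped, with differences of 0.04 and -0.07. In the adjoining stretch from Clec1b to Olr1 all 5, Clec1b, Clec9a, Clec1a, Clec7a and Olr1, had all 3 KO values below WT. Over all genes the shares were 8.71% above and 11.7% below. The boundary was placed after the values were seen, and the second stretch holds Clec9a. The first stretch starts at Clec2i, and no gene before it is shown. These counts are therefore a description and are not read against those shares. In the Dectin-2 cluster the groups overlapped for all 9 genes shown, as they did for 15860 of all 19937 genes. The 9 include Vmn2r19 as the flanking gene after Clec4e.

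Of the 3 measured genes on either side of Clec9a, Clec12b, Clec12a and Clec1b lie on one side and Clec1a, Clec7a and Olr1 on the other. Clec1a, a lectin receptor of myeloid and endothelial cells and the next gene, fell by 1.95 log2 units. It measured 4.24, 4.41 and 4.78 in KO replicates 1 to 3 and 6.29, 5.89 and 7.09 in WT replicates 1 to 3, so the groups did not overlap (SE 0.30, limma adjusted p = 0.0113). The KO mean was below the 25th percentile. The call was lost without KO replicate 2 (adjusted p = 0.0552). Clec12b differed by -0.07 (adjusted p = 0.874), and Olr1, the gene of the oxidised lipoprotein receptor LOX-1, by -0.41 (adjusted p = 0.194). Both Olr1 means were below the 25th percentile.

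**Figure D3:**
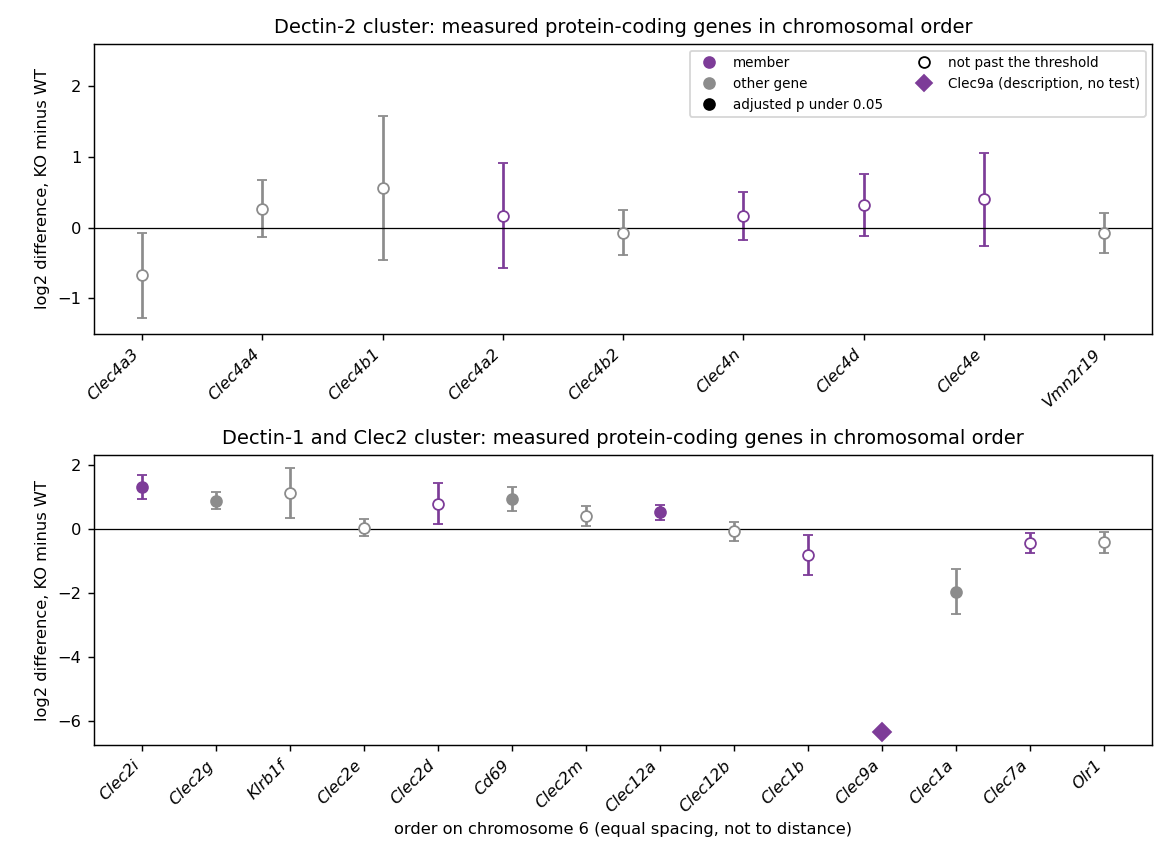
Log2 difference, KO minus WT (y axis), with 95% intervals for measured protein-coding genes in chromosomal order (x axis, equal spacing), members in purple, filled where limma's adjusted p was under 0.05, and Clec9a as a diamond without interval. Differences are above 0 from Clec2i to Clec12a and below 0 from Clec12b to Olr1, with Clec9a at -6.32. The intervals of 8 of the 9 genes shown for the Dectin-2 cluster, with Vmn2r19 as a flanking gene, include 0.

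Other C-type lectin genes moved in both directions. Of 36 measured genes outside the set, 2 rose and 4 fell by limma, beside 2.3% and 2.08% of all genes. The other 30 passed in neither direction, and the median difference of the 36 was -0.02 beside -0.04 over all genes. The list was drawn up with the large falls of Clec10a and the CD209 genes known, so its falls are not independent evidence. Cd69, an early activation receptor of lymphocytes, rose 1.92-fold to 11.91 ± 0.02 in KO, against 10.97 ± 0.30 in WT (SD, n = 3 each, adjusted p = 0.0169), and its call was lost without KO replicate 2 or 3 or WT replicate 3. Clec2g, a Clr family gene, rose 1.85-fold (adjusted p = 0.00497). Clec10a, the galactose-type lectin, fell by 2.62 (adjusted p = 0.00152), and Cd209a and Cd209d, mouse relatives of human DC-SIGN, fell by 3.73 and 5.06 (adjusted p = 0.00536 and 0.000126).

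The genes whose pattern was nearest that of Clec9a were others with far lower values in KO, and they are given as a description. Likeness was the Euclidean distance over the 6 arrays between log2 values after subtracting each gene's own mean. Predicted genes, clone names and small RNAs were left out. Of the remaining genes the nearest was Cd209d at a distance of 2.00. Next came Havcr1, a phosphatidylserine receptor gene, at 2.32, and Grm8, a glutamate receptor gene, at 2.87. Cxcr3, a chemokine receptor gene, followed at 3.47 and Plxdc2 at 3.69. The differences of these 5 genes were -5.06, -4.62, -4.02, -3.69 and -3.33 log2 units. Clec9a had the largest fall of all 19937 genes, so smaller falls in the 5 were given in advance. Cd209d measured 6.61, 5.69 and 5.50 in KO replicates 1 to 3 and 11.19, 10.98 and 10.83 in WT replicates 1 to 3. Within KO it was highest in replicate 1, where Clec9a was lowest.

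**Figure D4:**
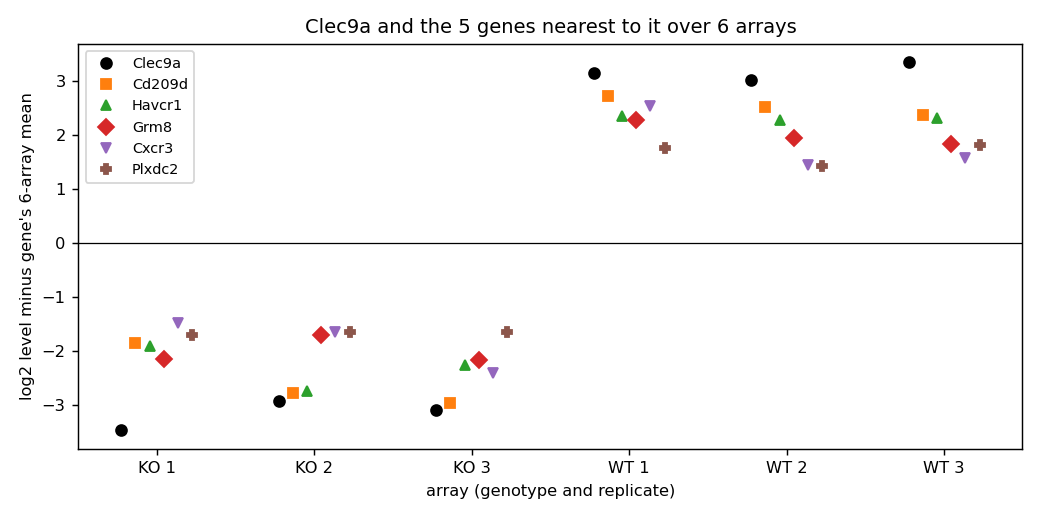
Log2 level minus each gene's own 6-array mean (y axis) by array (x axis) for Clec9a in black and the 5 nearest genes. Predicted genes, clone names and small RNAs were left out. All 6 genes lie below 0 in the 3 KO arrays and above 0 in the 3 WT arrays, and Clec9a lies farthest from 0 in each array, with Cd209d close to it in KO replicates 2 and 3.

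Most signalling genes of these receptors passed in neither direction. Of 22 measured, 0 rose and 1 fell by limma (2.3% and 2.08% of all genes). At an unadjusted p of 0.05, 1 was higher and 4 lower (7.58% and 8.49% of all genes), and the median difference was -0.01. Vav3, a guanine nucleotide exchange factor, fell by 0.59 to 5.85 ± 0.10 in KO, against 6.45 ± 0.02 in WT (SD, n = 3 each, adjusted p = 0.0204). That call was lost when any single array but KO replicate 1 was left out, with adjusted p up to 0.0948. Fcer1g, Syk and Card9 were named after their values were seen. Fcer1g, the FcRγ gene, measured 11.63 ± 0.22 in KO and 12.22 ± 0.10 in WT (adjusted p = 0.0644), Syk differed by -0.13 (adjusted p = 0.827) and Card9 by 0.28 (adjusted p = 0.473).

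Markers of other cell types that the gate could hold were read in the same fit. Over all genes 2.3% rose and 2.08% fell, and at an unadjusted p of 0.05 7.58% were higher and 8.49% lower. Of 9 measured cDC2 markers 3 rose, Il1r2, Itgam and Itgax, and 3 fell, Cd209a, Clec10a and Cd4. The falls of Cd209a and Clec10a among them are also counted with the other lectin genes and were known beforehand. Of 6 B cell markers 2 rose, Cd22 and Cd79a, and 0 fell. Of 5 T cell markers 1 rose, Cd5, and 0 fell. Of 7 natural killer cell markers 0 rose and 0 fell (2 and 1 at an unadjusted p of 0.05). Of 9 pDC markers 0 rose and 2 fell, Ccr9 and Pacsin1, and the median difference of the 9 was -0.35. Of 11 handling stress genes 0 rose and 0 fell (4 and 0 at an unadjusted p of 0.05). The summed level of the B cell markers ran from 8.01 to 8.61 in KO and from 7.29 to 7.60 in WT. Without Cd22, the brightest of them, it ran from 7.38 to 7.64 in KO and from 6.88 to 7.24 in WT. Ms4a1 and Vpreb3 had negative differences. The summed level of the natural killer cell markers ran from 12.20 to 12.52 in KO and from 11.66 to 11.98 in WT. Klrd1 makes up nearly all of the natural killer cell sum, which without it ran from 7.81 to 8.87 in KO and from 7.40 to 7.76 in WT, while Eomes, Gzma and Ncr1 had negative differences. The part of such cells in the higher Clec2d and Clec2i levels was not tested.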

How the data were processed

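The authors deposited 1 log2 level for each probe set on each array, and the scale was inferred from the range of the numbers. How they corrected, summarised and normalized them is not given in the sources used here. Per the labels' protocols, total RNA went through NuGen PICO SL amplification and biotin labelling. Of 34760 probe sets, 21640 had 1 symbol in the platform annotation and gave 19937 genes, a gene with several probe sets taking the brightest. KO minus WT was fitted with limma 3.58.1 (R 4.3.3, lmFit and eBayes, no covariates), two-sided, with Benjamini-Hochberg adjustment over all genes and a threshold of 0.05. Dim probe sets were kept. The fit was tested on simulated data. The members and lists were chosen with earlier results of these data known. Genes named are the 10 members, up to 6 genes past the threshold per list (or 2 as values), the listed binding partners, the 5 nearest to Clec9a and its 3 measured neighbours on each side. Genes named outside this are said to be so or stand beside a marker sum. Gene order came from RefSeq (GRCm38.p6), and no protein table was used. The 15 alternatives covered normalization, filters, probe sets, variance, array weights, the replicate block and left-out arrays. Figures used matplotlib 3.10.9.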

Additional observations from a re-analysis of the deposited data

How the results depend on the processing

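Clec9a stayed between -6.45 and -6.17 and Clec2i passed in all 15 alternatives. Clec12a also missed the threshold with quantile normalization (adjusted p = 0.0561), a variance trend (0.055) and without both arrays numbered 1 (0.0806), and kept its direction. The direction of a member turned for Clec4a2 alone, at -0.045 with array weights, -0.20 to 0.37 without single arrays, the lower value without KO replicate 1, and -0.22 without both arrays numbered 1. Without both arrays numbered 1, Clec1b and Clec2d passed (adjusted p = 0.0334 and 0.0172). Members that rose numbered 1 with quantile normalization or a variance trend and 1 to 2 without single arrays, and members that fell 1 without both arrays numbered 1 and 0 to 1 without single arrays. Other lectin genes that rose numbered 1 to 3 and those that fell 3 to 5 without single arrays, and 2 fell among bright genes alone, where fewer genes were tested. Signalling genes that fell numbered 2 with quantile normalization, centred medians, array weights or without both arrays numbered 1, 3 with the replicate block, and 0 to 2 without single arrays. Over all genes, 716 rose and 647 fell with array weights, 741 and 641 without both arrays numbered 1, and 249 to 780 rose and 202 to 719 fell without single arrays. With the replicate number as a block 707 rose and 655 fell. Deviations from the group means correlated at 0.379, 0.097 and 0.252 between arrays of the same number, for replicates 1 to 3. KO replicate 2 correlated better with WT replicate 3, at 0.2. The labels state no pairing, and whether samples of the same number share more than the number was not tested. The causes of these changes were not tested. Bright genes alone gave no value for dim members, and RefSeq-matched probe sets none for Clec7a. Signals near the low end limit the differences of Clec9a, Clec1b, Clec4a2, Clec4d and Clec4e.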
